A study of Mus musculus with 16 samples.

Results

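A hairpin RNA carrying 2 point mutations was compared with the same hairpin carrying 5 point mutations in mouse forebrain neurons. The 8 libraries of this comparison, 4 with each mutated hairpin, were taken by their labels from the 16 libraries of the series. All 16 came from primary neuronal cultures of the forebrain, prepared perinatally, and all had been transduced with lentiviral vectors. The other groups, also of 4 libraries each, were an empty vector and the unmutated hairpin, and they serve here as reference levels. The labels name neither the target of the hairpin nor its sequence, and they give no strain and no time after transduction. Whether replicates of a group are different cultures is not in the labels either, so the spread behind each p-value is that of these libraries alone and may be technical.

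A short hairpin RNA is cut by the enzyme Dicer into a small duplex, of which a strand is loaded into an Argonaute protein. The loaded strand finds its targets largely through its seed, a short stretch near its 5′ end, and a seed match in the 3′ untranslated region (3′ UTR) of a messenger RNA can be enough to lower that messenger. Endogenous microRNAs use the same proteins and the same kind of match. Hairpins with point mutations are commonly used as controls that should no longer act on the intended target.

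Total counts were 41618901 to 49824569 in the 2-mutation libraries and 35521472 to 47401867 in the 5-mutation libraries. The noncoding gene Gm26917, whose locus attracts ribosomal RNA reads, took 10.92 to 11.48% of the counts with 2 mutations and 7.995 to 9.157% with 5, against 5.848 to 6.341% with the empty vector. Levels are given as CPM (library-size-scaled counts), normalized by the trimmed mean of M-values (TMM). The main axis of variation among the 8 libraries (74.4% of the variance) separated the hairpins, and the next (9.65%) set 5-mutation replicates 2 and 3 apart from the rest at opposite ends. Several counts are therefore also given without these libraries. In a bulk library, fewer cells of a type and less RNA per cell cannot be told apart.

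The mutated hairpins differed from each other across most of the transcriptome. Of 19479 genes tested, 12838 (65.9%) were called different by the quasi-likelihood test of edgeR at a Benjamini-Hochberg adjusted p below 0.05. With 2 mutations 6285 genes (32.3%) were higher and 6553 (33.6%) were lower than with 5. Over 2-fold, 1438 genes (7.38%) were higher and 2498 (12.8%) lower, and over 8-fold, 93 (0.477%) were higher and 181 (0.929%) lower. The CPM of the groups did not overlap for 11477 genes (58.9%). The median absolute log2 difference of the called genes was 0.66, and the median of all genes tested was -0.046. All log2 differences are given as 2-mutation minus 5-mutation, with their standard error (SE).

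**Figure D1:**
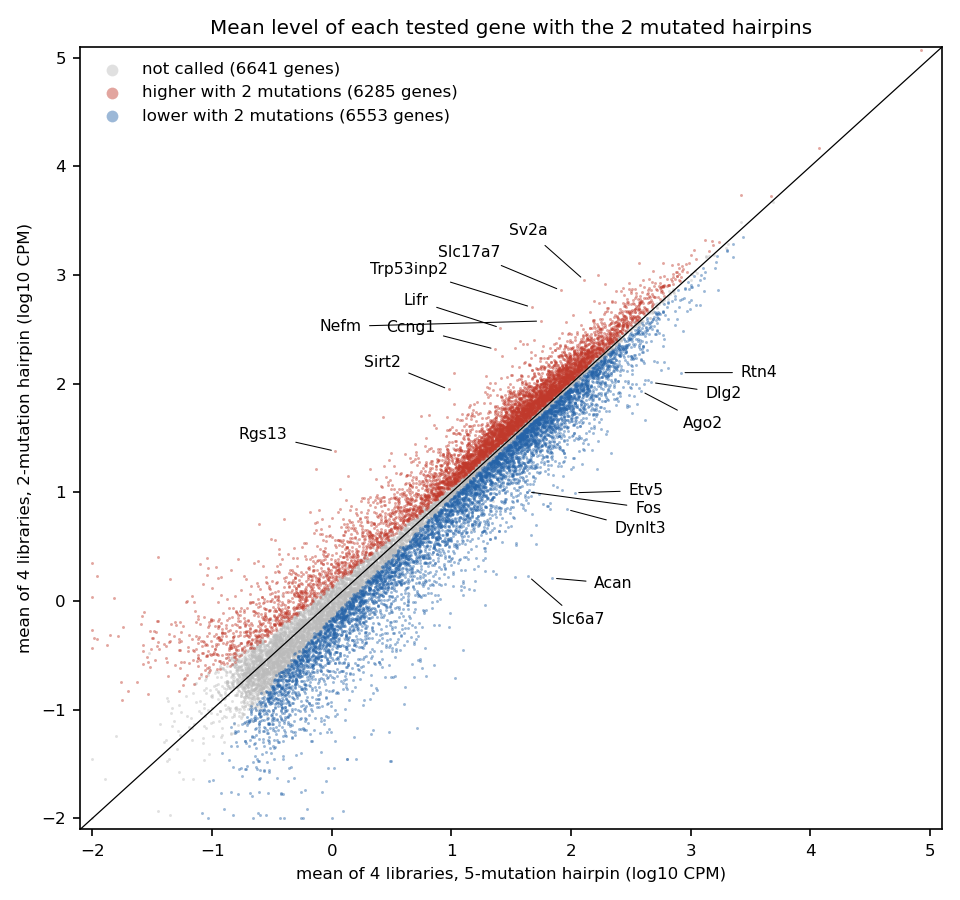
Each point is a tested gene, placed by its mean over the 4 libraries of the 5-mutation hairpin (horizontal) and of the 2-mutation hairpin (vertical) in log10 CPM, with means below 0.01 CPM drawn at 0.01; the line marks equal levels. Red points (6285) were higher and blue points (6553) lower with 2 mutations, and called genes lie on both sides of the line over the whole range of levels.

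Genes were ranked among the called genes whose log2 CPM averaged 2 or more over the 8 libraries, a limit that leaves out genes of low level. Those with the largest differences toward lower levels with 2 mutations included a matrix proteoglycan, a transporter, a motor subunit and a transcription factor. Acan (ENSMUSG00000030607.7, chr7:79053483-79115099, GRCm38) encodes aggrecan, the main proteoglycan of the nets around inhibitory neurons. Its CPM were 1.43, 1.46, 1.83 and 1.76 with 2 mutations and 90.5, 59.5, 83.6 and 45.9 with 5, against a mean of 15.4 with the empty vector. The log2 difference was -5.43 (SE 0.49, adjusted p = 3.54e-07), and the empty vector lay between the hairpins. Slc6a7 (ENSMUSG00000052026.8), the brain transporter of proline, had 1.64, 1.74, 1.65 and 1.72 CPM with 2 mutations. With 5 mutations Slc6a7 had 47.7, 44.6, 42.3 and 41.3 CPM, and its log2 difference was -4.70 (SE 0.08, adjusted p = 1.4e-21). The 5-mutation level of Slc6a7 was nearer to the empty vector (30.1 CPM) than the 2-mutation level.

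Dynlt3 (ENSMUSG00000031176.8, chrX:9654267-9663003), a light chain of the motor protein dynein, had 6.68, 6.53, 7.95 and 6.74 CPM with 2 mutations. With 5 mutations it had 86.5, 89.1, 95.3 and 96.3 CPM, and with the empty vector a mean of 77.0. The libraries did not overlap, and the log2 difference was -3.72 (SE 0.06, adjusted p = 4.26e-22). Etv5 (ENSMUSG00000013089.15, chr16:22381309-22439719), a transcription factor induced through the extracellular signal-regulated kinase (ERK) pathway, had 11, 8.83, 8.61 and 11.2 CPM with 2 mutations. With 5 mutations Etv5 had 128, 94.8, 114 and 91.2 CPM, with a log2 difference of -3.43 (SE 0.16, adjusted p = 6.63e-11). The empty vector, at 29.7 CPM, lay between the hairpins for Etv5. For Dynlt3 it also lay between them, but near the 5-mutation level. With the unmutated hairpin Etv5 had a mean of 89.5 CPM, nearer to the 5-mutation level.

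The other 8 of the 12 genes with the lowest differences above that limit ran from -4.36 to -3.44. They were Rasa4, which inactivates the small GTPase Ras, Cyp26b1, which degrades retinoic acid, the collagen gene Col26a1, the intermediate filament gene Prph, the scavenger receptor family member Scarf2, the orexin receptor gene Hcrtr2, Klhl4, and the thyroid hormone-responsive corepressor gene Hr. Rasa4 had 0.918 CPM with 2 mutations, 19.0 with 5 and 2.62 with the empty vector. Scarf2 had 1.27, 15.4 and 1.85 CPM in the same order, so that for both genes the 2-mutation hairpin lay nearer to the empty vector.

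Above the same limit, the genes with the largest differences toward higher levels with 2 mutations included receptors, an adhesion molecule and the main vesicular glutamate transporter of the cortex. Rgs13 (ENSMUSG00000051079.8), a regulator of G-protein signalling, had 27.1, 22.9, 23.0 and 22.8 CPM with 2 mutations and 1.26, 0.942, 1.2 and 0.892 with 5. Its log2 difference was 4.48 (SE 0.12, adjusted p = 1.04e-18), and the empty vector had 2.68 CPM.

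Lifr (ENSMUSG00000054263.12, chr15:7090614-7197489) encodes the receptor of leukemia inhibitory factor. It had 333, 303, 358 and 315 CPM with 2 mutations and 23.8, 23.7, 29.6 and 25.4 with 5. The empty vector, at 106 CPM, lay between them, and the log2 difference was 3.68 (SE 0.07, adjusted p = 1.26e-19). Slc17a7 (ENSMUSG00000070570.5, chr7:45163949-45176142) encodes a transporter that fills synaptic vesicles with glutamate. It had 748, 694, 715 and 744 CPM with 2 mutations and 86.4, 74.3, 86.3 and 79.8 with 5. Its log2 difference was 3.15 (SE 0.06, adjusted p = 2.08e-21). The 2-mutation level of Slc17a7 was near that of the empty vector (612 CPM) and of the unmutated hairpin (573 CPM), and the 5-mutation level was the one apart.

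The other 8 named genes with the highest differences ran from 2.88 to 3.57. They were the adhesion gene Sdk2, the autophagy gene Trp53inp2, the deacetylase gene Sirt2, the integrin gene Itga4, the p53 target Ccng1, the matrix gene Tnc, the cell cycle gene Gtse1 and the neuropeptide Y receptor gene Npy2r. Sirt2 had 88.8 CPM with 2 mutations, 9.47 with 5 and 49.9 with the empty vector. Ccng1 had 208, 23.2 and 114 CPM in the same order, so the empty vector lay between the hairpins for both genes. Rasa4, Sirt2, Itga4 and Tnc overlap an annotated gene on the other strand (Gm15701, Nfkbib, Cerkl and 8030451A03Rik), and whether the counting used strand is not given in the sources used here, so their counts are uncertain.

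**Figure D2:**
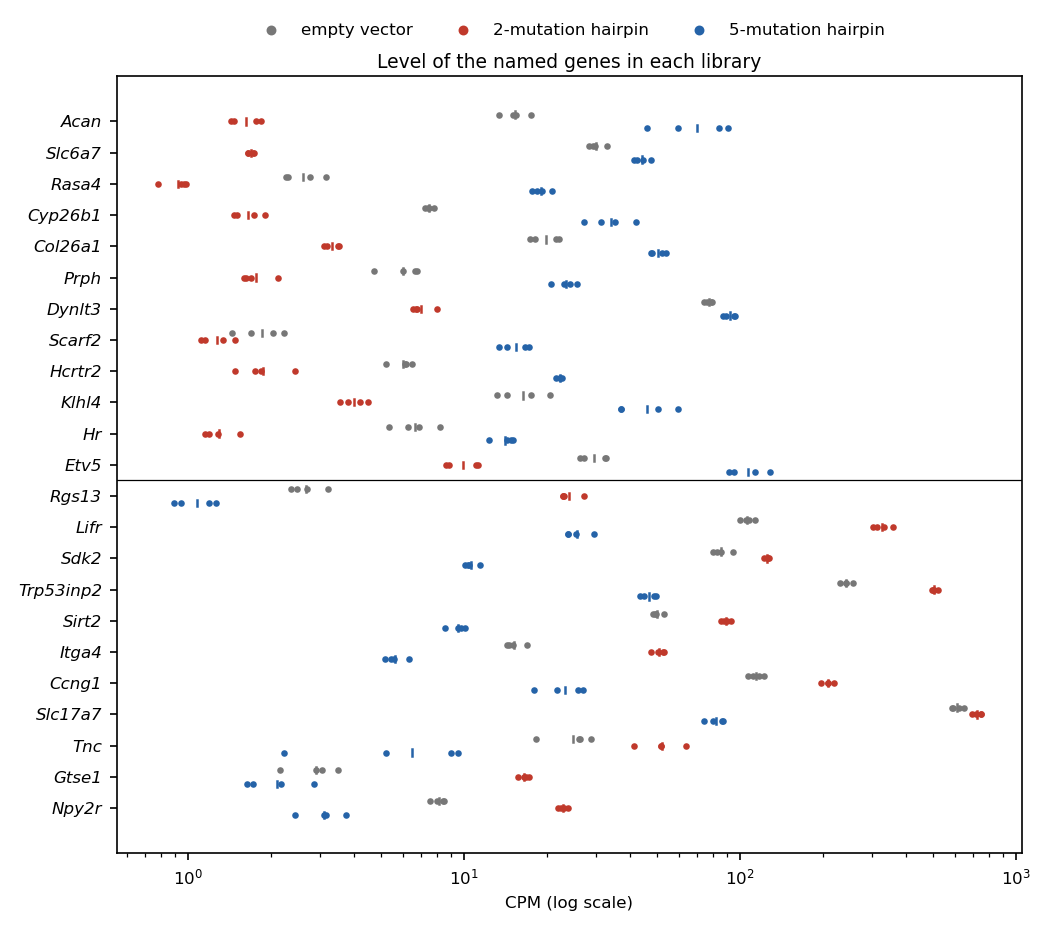
CPM (log axis) of the 12 genes with the lowest differences (above the line) and the 11 reported here with the highest (below it) in each library, among called genes whose log2 CPM averaged 2 or more; points are libraries and short bars the mean of 4, for the empty vector (grey), the 2-mutation hairpin (red) and the 5-mutation hairpin (blue). Red and blue points do not overlap for any of these genes. The mean of the grey points lies between the red and blue means for each gene. It is nearer to blue for Dynlt3 (77.0 CPM) and nearer to red for Rasa4 (2.62 CPM).

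Rtn4 (ENSMUSG00000020458.16, chr11:29692947-29744331) encodes Nogo, an inhibitor of axon growth, and had its lowest level with the unmutated hairpin. Its CPM were 30.9, 31.3, 29.9 and 29.9 with the unmutated hairpin, 130, 126, 128 and 122 with 2 mutations, and 836, 773, 845 and 856 with 5. The empty vector gave 842, 837, 881 and 891 CPM. The 2-mutation hairpin therefore lay between the unmutated hairpin and the empty vector, and the 5-mutation libraries overlapped those of the empty vector. Between the mutated hairpins Rtn4 differed by -2.71 (SE 0.04, edgeR adjusted p = 4.26e-22). Rtn4 overlaps Eml6 on the other strand.

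Of the 16 tested reticulon and Nogo receptor pathway genes, 10 were higher and 4 lower with 2 mutations, with a median log2 difference of 0.36. Over all genes tested, 32.3% were higher and 33.6% lower, with a median of -0.046. Lower beside Rtn4 was its receptor gene Rtn4r (28.6 against 48.3 CPM, log2 difference -0.75). Higher were the co-receptor gene Ngfr (4.45 against 1.29 CPM), the myelin ligand gene Omg (41.9 against 15.4 CPM) and the family member Rtn3 (1099 against 845 CPM). The differences of the list ran from -2.71 for Rtn4 to 1.80 for Ngfr.

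To describe sequence shared by the genes on each side, all 7-base words found in the 3′ UTRs of at least 100 genes were scanned. These were 15900 words, among 14246 tested genes with a UTR of at least 50 bases. The log2 difference was regressed on having the word, with UTR length and base composition as covariates. Words were ranked by the ratio of the coefficient to its standard error across genes. The words were chosen by these values, so what follows about the 2-mutation minus 5-mutation difference is a description and no test. The word with the most negative ratio is called word A, and the word with the most positive ratio word B. They read 5′ to 3′ on the transcribed strand as below, each followed by its reverse complement.

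word A: ATGACAA

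word A, reverse complement: TTGTCAT

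word B: CTAACCA

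word B, reverse complement: TGGTTAG

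Word A was in the 3′ UTR of 1486 genes (10.4%), and its coefficient on the difference was -0.43. Word B was in 1102 genes (7.74%), with a coefficient of 0.36. The next words on each side overlapped these in letters, TGACAAA and TATGACA (-0.32 each) on the lower side and TCTAACC (0.25) and ACTAACC (0.26) on the higher side. Of 1679 mature microRNAs in the RefSeq table for the GRCm38 build, none had a seed complementary to word A or to word B. That table may lack some microRNAs, since 2 of the 31 families listed for the comparison below were not found in it by name. Only the transcribed strand was searched.

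Genes with word A were low with the 2-mutation hairpin, and genes with word B were low with the 5-mutation hairpin. The coefficient of word A, in log2 CPM around the mean of the 16 libraries, was -0.316, -0.315, -0.302 and -0.331 in the 2-mutation libraries and 0.0970, 0.112, 0.0995 and 0.0995 in the 5-mutation libraries. It was 0.119 to 0.125 with the empty vector and 0.0787 to 0.102 with the unmutated hairpin, so that the 2-mutation libraries alone stood apart from the others. The coefficient of word B was -0.282, -0.262, -0.260 and -0.280 in the 5-mutation libraries and 0.0833, 0.0880, 0.0848 and 0.0813 in the 2-mutation libraries. Here the empty vector (0.0954 to 0.103) and the unmutated hairpin (0.0811 to 0.0945) sat beside the 2-mutation hairpin.

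The difference grew with the number of matches. Genes with 0, 1, 2 and 3 or more matches of word A had a median log2 difference of 0.081 (12760 genes), -0.29 (1291), -0.55 (168) and -0.92 (27). Against the empty vector, the medians of the same genes were 0.11, -0.32, -0.76 and -1.06 for the 2-mutation hairpin and 0.022, -0.021, -0.097 and -0.31 for the 5-mutation hairpin. For word B the median differences were 0.032 (13144 genes), 0.26 (1007), 0.31 (85) and 0.67 (10). Against the empty vector these were 0.077, -0.017, -0.13 and -0.24 with 2 mutations and 0.035, -0.31, -0.50 and -0.91 with 5. Genes with more matches also had longer 3′ UTRs, with a median of 1101 bases without word A and 2503 with 1 match, and the part of UTR length in these medians was not tested. Among word A genes 56.2% of those with 1 match and 64.9% of those with 2 were called lower, against 32.2% of those with none.

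**Figure D3:**
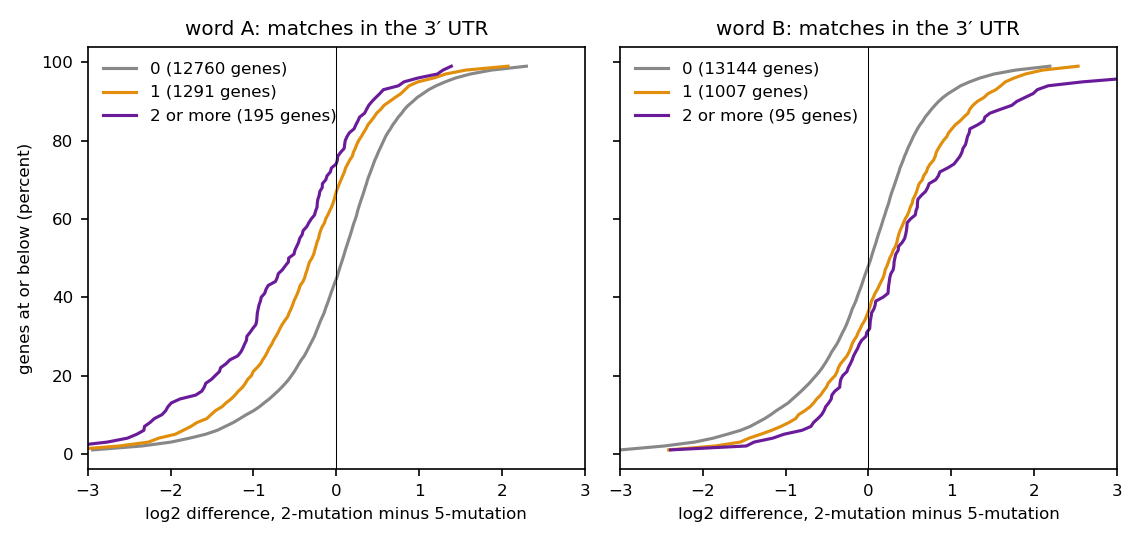
Share of genes (vertical, percent) at or below each log2 difference (horizontal, 2-mutation minus 5-mutation) for genes with 0, 1 or at least 2 matches of word A (left) or word B (right) in the 3′ UTR. The curves of genes with word A lie to the left of those without (median -0.29 with 1 match against 0.081), and the curves of genes with word B lie to the right (0.26 against 0.032).

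The difference also went with the form of the match. Genes with the 8-base form of word A (ATGACAAA) had a median of -0.41 (570 genes), those with only the 7 bases -0.26 (916), those with TGACAAA -0.11 (1157) and those with only the shared 6 bases TGACAA -0.0082 (1909). For word B the order was 0.37 with CTAACCAA (287 genes), 0.24 with only the 7 bases (815), 0.057 with TAACCAA (840) and 0.068 with only TAACCA (1901), so that for word B the last of these forms did not follow their length. Genes with both words (213) had a median of -0.064, between the 1273 genes with word A alone (-0.36) and the 889 with word B alone (0.35). Genes with neither (11871) had a median of 0.065. Among genes over 2-fold lower with 2 mutations, 19.5% held word A and 4.58% word B, and among those over 2-fold higher, 6.10% held word A and 16.8% word B. Most genes with large differences therefore held neither word.

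Sites of some of the most changed genes are shown as examples. Words and named genes were picked by the same difference, so finding them together is no test. Over all 14246 genes with a UTR, 10.4% held word A and 7.74% word B. Each line gives 23 bases of the 3′ UTR from GRCm38, with the word in capitals. Of the 12 named genes with the lowest differences, 3 had word A (Dynlt3, Klhl4 and Etv5) and 1 had word B (Cyp26b1). The sites of the first 3 are followed by those of Ago2 and Dlg2, described further on and picked after their values were seen. The 3′ UTR of Ago2 (11064 bases) is long beside the median of 1223.

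Dynlt3, chrX:9655872-9655894, minus strand: tgtgctagATGACAAgtgtgcaa

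Dynlt3, chrX:9654522-9654544, minus strand: taactctaATGACAAgaatgcaa

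Klhl4, chrX:114560569-114560591, plus strand: cctccctaATGACAAaacaatat

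Etv5, chr16:22383138-22383160, minus strand: ccgagtgtATGACAAtctgcgtt

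Ago2, chr15:73105039-73105061, minus strand: tcttactaATGACAAtagtctct

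Dlg2, chr7:92448881-92448903, plus strand: cttttactATGACAAttttgtgc

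Of the 11 genes reported here with the highest differences, 6 had word B (Lifr, Sdk2, Sirt2, Itga4, Ccng1 and Slc17a7) and 2 had word A (Lifr and Npy2r). The 3′ UTRs of Lifr (6320 bases) and Itga4 (6508) were long beside the median of 1223, and these counts make no allowance for length. Sirt2 had 4 copies of word B within a short tandem repeat, Lifr had 3, and Sdk2 and Slc17a7 had 2 each. Shown are both sites of Slc17a7, 2 of the 4 copies in Sirt2, and those of Ccng1 and Sv2a, the last picked after its value was seen.

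Slc17a7, chr7:45175475-45175497, plus strand: aggctcgcCTAACCAattctaca

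Slc17a7, chr7:45175510-45175532, plus strand: ggtttaacCTAACCAccaatgcc

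Sirt2, chr7:28788253-28788275, plus strand: tggggcctCTAACCAccatagcc

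Sirt2, chr7:28788269-28788291, plus strand: catagcctCTAACCAccatagcc

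Ccng1, chr11:40748594-40748616, minus strand: gaagttaaCTAACCAactaccat

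Sv2a, chr3:96195163-96195185, plus strand: aagttaaaCTAACCAcaaaaaga

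The genes with sites did not all follow their word. Cyp26b1 had word B and was lower with 2 mutations (1.65 against 34 CPM), and Npy2r had word A and was higher (22.8 against 3.11 CPM). Acan, Slc6a7, Rgs13, Trp53inp2 and Rtn4 had neither word in their longest annotated 3′ UTR. A match is a description of these letters in that window.

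For comparison, the same coefficient was computed for the seed matches of 29 microRNA families of neurons and glia, from mature sequences in the RefSeq table for GRCm38. Of 31 families listed, 2 were not found there by name and were left out, the neuronal miR-124 among them. In 18 families the 2-mutation and 5-mutation libraries did not overlap, 6 with the higher coefficient and 12 with the lower coefficient under 2 mutations. The same share over all 7-base words was not computed, so this count shows nothing particular to microRNA families. Among single genes, the CPM of the groups did not overlap in 58.9%. With 7-base matches the sizes were small beside those of the words, with a median absolute difference of 0.020 and a largest of 0.053. The words were picked from 15900 as extremes of this same difference, so their larger sizes follow in part from that choice and test nothing. The 3 families with the lowest and the 2 with the highest differences are shown with their seeds in capitals.

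miR-182-5p: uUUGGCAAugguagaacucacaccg

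miR-103-3p: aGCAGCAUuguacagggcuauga

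miR-26a-5p: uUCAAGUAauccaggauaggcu

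miR-128-3p: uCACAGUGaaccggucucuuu

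miR-137-3p: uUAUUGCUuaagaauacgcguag

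Genes with a match to miR-182-5p had a lower coefficient with 2 mutations by -0.053, and those with a match to miR-103-3p or miR-26a-5p by -0.048 each. Genes with a match to miR-137-3p, abundant in neurons, had a higher coefficient by 0.040, and those with a match to miR-128-3p, also neuronal, by 0.039. When the match was lengthened to 8 bases, 9 of the 29 families changed sign, 4 of the 18 came to overlap and 8 others no longer did, so the direction of a family depended on the form of the site. The 8-base differences reached 0.089 for miR-99b-5p and -0.068 for miR-103-3p. These coefficients read messenger levels, and the microRNAs themselves were not measured.

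**Figure D4:**
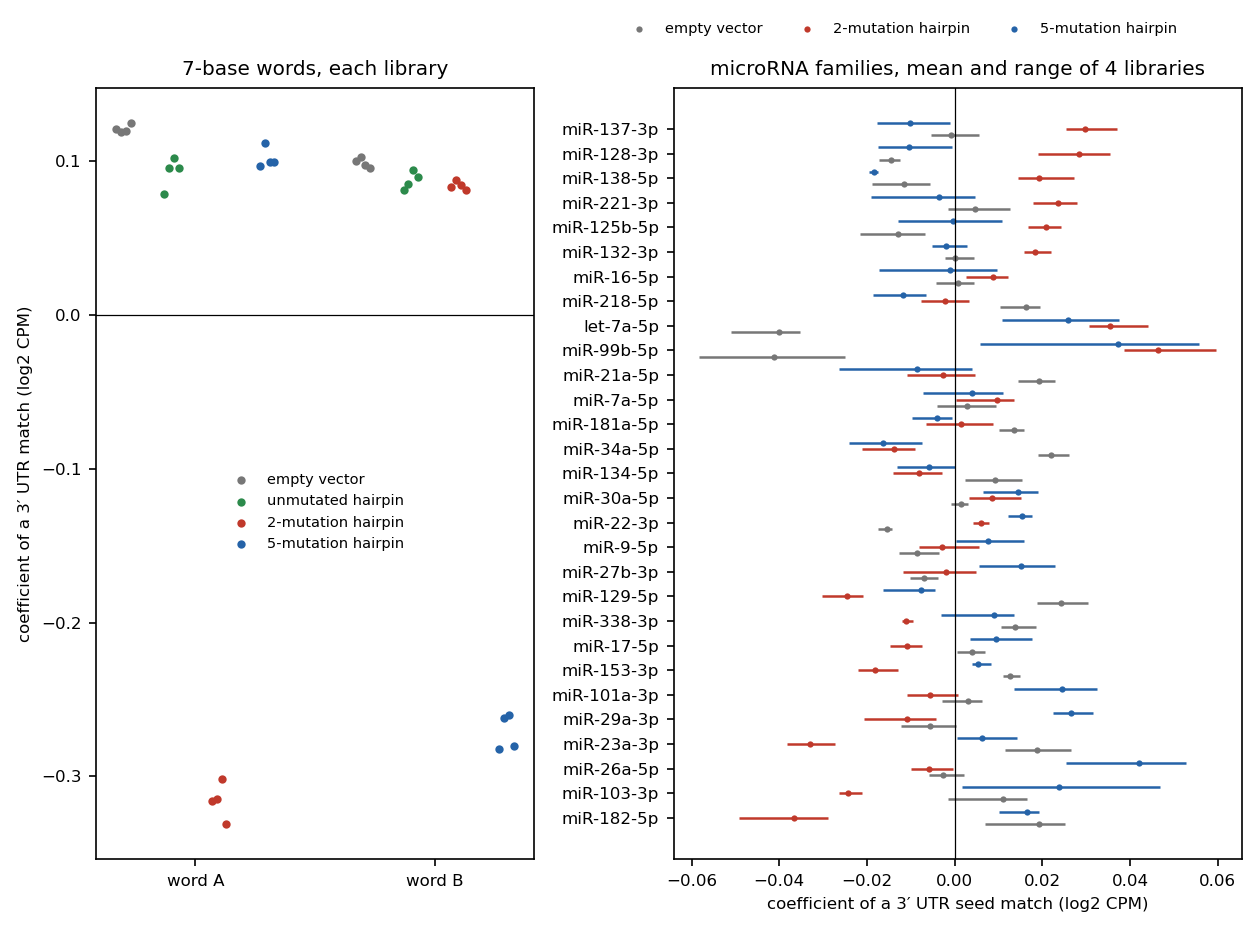
Left, the coefficient of having word A or word B in the 3′ UTR (log2 CPM) in each of the 16 libraries. Right, the coefficient of having a seed match for 29 microRNA families, as mean (point) and range (line) of 4 libraries; the right axis spans a far smaller range. Word A sets the 2-mutation libraries apart (-0.331 to -0.302) and word B the 5-mutation libraries (-0.282 to -0.260). No family differs by more than 0.053 with the 7-base match plotted here. The words were picked by this difference, so the contrast in size is no test.

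Messengers of the RNA interference machinery differed between the hairpins as well, the largest difference of the list being in Ago2, whose protein is the Argonaute that can cut its target. Ago2 (ENSMUSG00000036698.11, chr15:73095844-73184935) had 86.7, 81.8, 92.0 and 81.3 CPM with 2 mutations and 377, 384, 397 and 386 with 5. The log2 difference was -2.18 (SE 0.05, edgeR adjusted p = 3.69e-19). With the empty vector it had 354 CPM and with the unmutated hairpin 516, so the 2-mutation libraries were the low ones. Ago2 overlaps Chrac1 on the other strand. Ago4 was also lower (9.84 against 21.4 CPM, log2 difference -1.13), as was Ago3 (28.4 against 37.9 CPM, -0.42), while Ago1 had 125 against 119 CPM and was not called (adjusted p = 0.15). Dicer1, which cuts hairpins into duplexes, was higher (200 against 122 CPM, 0.71). Tnrc6a, a partner of Argonaute in silencing, was higher (174 against 97.0 CPM, 0.84) and its relative Tnrc6b lower (117 against 198 CPM, -0.75). Drosha, which releases microRNA precursors, and Xpo5, which exports them, were lower by small amounts (-0.23 and -0.15). In all 8 of 25 genes of the list were higher and 12 lower, and 5 each held word A (Ago2, Ago3, Tnrc6b, Cnot6 and Ddx6) and word B (Dgcr8, Ago3, Dcp2, Xrn1 and Lin28b).

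The other gene lists are read against a background of 32.3% of all genes higher and 33.6% lower. The lists were chosen with earlier results of these data known, so their counts describe and do not test them.

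Genes of the ERK pathway that report or damp its activity were mostly lower with 2 mutations. Of 18 tested, 13 were lower and 2 higher, with a median log2 difference of -1.25, against -0.046 for all genes. Spry4, a feedback inhibitor of receptor signalling, had 8.75, 7.24, 7.5 and 8.27 CPM with 2 mutations and 75, 58.7, 75.8 and 58.0 with 5 (log2 difference -3.07). Spred1, another inhibitor, had 33.1, 34.3, 39.4 and 39.1 CPM against 141, 142, 137 and 145 (-1.95) and held word A at 1 site. The phosphatase gene Dusp6 had 25, 20.8, 23.0 and 26.7 CPM against 126, 105, 128 and 105 (-2.28). With the empty vector Spry4 had 13.8 CPM, Dusp6 24 and Spred1 115. Of the mutated hairpins, the 5-mutation one was therefore apart from the empty vector for Dusp6 and the 2-mutation one for Spred1. With the unmutated hairpin Dusp6 had 52.7 CPM, also above the empty vector. Etv1, an ERK-responsive factor like Etv5, was lower as well (14.2 against 47.6 CPM, -1.75). Without 5-mutation replicates 2 and 3, 11 genes were lower and 2 higher.

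Immediate early and activity-regulated genes, which neurons switch on within minutes to hours of firing, were also mostly lower with 2 mutations. Of 25 tested, 17 were lower and 4 higher, with a median of -0.90, and without 5-mutation replicates 2 and 3 the counts were 15 and 4. Nr4a1, a nuclear receptor gene of this class, had 5.14, 5.09, 4.75 and 5.15 CPM with 2 mutations and 44.5, 40, 85.0 and 32.7 with 5 (log2 difference -3.32). Egr3 had 12.4, 9.30, 10.1 and 12.0 CPM against 32.8, 32.7, 35.1 and 34 (-1.62), both below the empty vector (50.8 CPM). Bdnf, the gene of brain-derived neurotrophic factor, had 30.3 against 93.0 CPM (-1.61), with 25.3 for the empty vector and 74.7 for the unmutated hairpin. The level of Fos depended on a library, with 40.1, 26.8, 84.9 and 20.9 CPM in the 5-mutation group against 9.33 to 10.5 in the 2-mutation group, and its log2 difference of -2.08 became -1.53 without 5-mutation replicate 3. Npas4 was high in the same library (85.3 CPM against 18.3 to 27.2 in the others), and its difference went from -1.74 to -1.01 without it, while Fosb went from -2.0 to -1.39. All 3 remained called without that library. Jun went the other way, with 78.1 CPM with 2 mutations, 21.1 with 5 and 103 with the empty vector (1.90). Egr1 had 22.2 against 25.5 CPM and was not called (adjusted p = 0.144).

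Neuropeptide genes were lower in 12 and higher in 5 of 23 tested, with a median of -0.88. Cort, the gene of cortistatin, had 0.107, 0.248, 0.259 and 0.172 CPM with 2 mutations and 11.4, 9.20, 12.5 and 10.1 with 5 (log2 difference -5.78). Grp, which encodes gastrin-releasing peptide, had 0.351 against 12.5 CPM (-5.13), and Sst, the somatostatin gene, 17.8 against 64.7 CPM (-1.86). With the empty vector Cort had 3.08, Grp 11.1 and Sst 68.6 CPM. The granin gene Chga was higher (213 against 79.4 CPM, 1.42), so peptides and the granins of their vesicles did not all move together.

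Markers of inhibitory neurons differed in both directions. Of 20 tested, 11 were higher and 7 lower with 2 mutations, with a median of 0.94. Among transcription factor genes, Lhx6 had 34.8 against 10.4 CPM (log2 difference 1.74) and Dlx2 8.21 against 2.2 CPM (1.90). Slc32a1, which loads GABA into vesicles, had 74.7 against 31.2 CPM (1.26) and Reln, a secreted matrix protein gene, 344 against 121 CPM (1.51). Lower were Sst (-1.86), Calb2 (5.35 against 19.4 CPM, -1.85), Npy (-0.88), Calb1 (-0.33) and, at a very low level, Pvalb (0.078 against 0.397 CPM, -2.27). The genes of the enzymes that make GABA were lower too. Gad1 had 47.4, 80.0, 63.5 and 67.2 CPM against 125, 162, 122 and 139 (-1.09). Gad2 had 9.94, 28.3, 14.9 and 15.3 CPM against 31.5, 62.3, 29.4 and 38.2 (-1.25, adjusted p = 0.0114), a call lost without 5-mutation replicates 2 and 3 (-1.04, adjusted p = 0.0638). Both Gad1 and Gad2 held 1 site of word A, and both were below the empty vector (221 and 170 CPM) with either hairpin.

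Markers of excitatory neurons were higher in 9 and lower in 4 of 18 tested, with a median of 0.28. Beside Slc17a7, the transcription factor genes Neurod1 (84.8 against 19.1 CPM, log2 difference 2.15), Tbr1 (181 against 68.6 CPM, 1.40) and Neurod2 (114 against 67.2 CPM, 0.76) were higher. Neurod1 had 22.6 CPM with the empty vector, near the 5-mutation level. Lower were Tle4, a corepressor gene of deep cortical layers (52.8 against 105 CPM, -0.995), Rorb, a layer marker (12.7 against 24.6 CPM, -0.96), and by small amounts Mef2c and Camk2a (-0.17 each). Genes expressed by all neurons were higher in 11 and lower in 6 of 20, with a median of 0.48. Rbfox3, whose protein is the nuclear marker NeuN, had 117, 118, 113 and 129 CPM against 30.9, 31.3, 30.6 and 32.6 (1.93), with 150 for the empty vector. Elavl3 (354 against 165 CPM, 1.10) and Thy1 (466 against 202 CPM, 1.21) were higher too. Dcx, a microtubule protein gene of young neurons, was lower (197 against 395 CPM, -0.999), as were Snap25 (455 against 586 CPM, -0.36), Stmn2, Gap43 and Map2 (-0.28 to -0.21). Without TMM, the summed level of the 20 pan-neuronal genes was 12000 to 12500 CPM with 2 mutations and 11700 to 12000 with 5. The TMM factors were 0.935 to 0.969 with 2 mutations and 1.013 to 1.076 with 5. On the TMM scale of the single genes, the sums of the groups therefore lie further apart.

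Markers of other cells of the brain were called in both directions. Their sums below are also without TMM, which would raise the 2-mutation sums relative to the 5-mutation sums. Of 14 astrocyte markers, 3 were higher and 4 lower (median -0.065), and the summed level of the 15 listed was 1130 to 1320 CPM against 835 to 1120. Clu was higher (180 against 77.8 CPM) and Aqp4 lower (5.08 against 14.9 CPM). Of 7 tested oligodendrocyte lineage markers, 2 were higher and 1 lower (median 0.060), and the sum of the 14 listed was 52.0 to 58.6 against 94.8 to 111 CPM. The myelin gene Mbp, which held word A, had 23.5 against 68.5 CPM and was the 1 lower gene, whereas Olig2 (3.57 against 2.05 CPM) and Cnp (16.3 against 12.8 CPM) were higher, so the difference in the sum came mainly from Mbp. Without 5-mutation replicate 1 a further gene of this list was lower (2 in place of 1). The myelin gene Mag was at 0 in all 8 libraries. Of 5 tested microglia markers, 2 were higher and 2 lower (median 0.43), and the 14 listed summed to 19.6 to 21.6 against 22.2 to 28.0 CPM, with Tyrobp at 0 in all 8 libraries. Endothelial and mural markers (1 higher and 3 lower of 9, median -0.71) summed to 5.23 to 8.90 against 7.85 to 21.8 CPM, and the 3 lower became 1 without 2-mutation replicate 1 and the 1 higher became 2 without 5-mutation replicate 3. Fibroblast and meningeal markers (1 higher and 1 lower of 12, median -0.40) summed to 199 to 276 against 101 to 340 CPM, the top value in 5-mutation replicate 3, where Col1a1 had 58.2 CPM against 8.48 to 13.7 in the other 5-mutation libraries. The calls of this list rested on single libraries, with 4 higher without 5-mutation replicate 3, 5 lower without 5-mutation replicate 1 or 2, and 4 lower without 2-mutation replicate 3. Without 5-mutation replicates 2 and 3 together, 3 were higher and 2 lower, and the matrix gene Lum, not called with all libraries (1.23, edgeR adjusted p = 0.0537), was called at 2.49 (adjusted p = 7.88e-08). The part of these cells in the other differences was not tested.

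Genes of the presynaptic release machinery were higher in 16 and lower in 6 of 30, with a median of 0.25. Sv2a, a synaptic vesicle protein gene, had 870, 892, 941 and 913 CPM with 2 mutations and 130, 130, 129 and 123 with 5 (log2 difference 2.82), with 506 for the empty vector, and held word B at the site shown. Dnm1, which pinches off vesicles, had 564 against 222 CPM (1.35) and also held word B. Syt4 was lower (141 against 643 CPM, -2.19) and held neither word.

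Postsynaptic scaffold and signalling genes were split, with 13 higher and 12 lower of 27 and a median of -0.0055. Dlg2, a scaffold of the postsynaptic density, had 106, 101, 106 and 97.9 CPM against 457, 477, 464 and 481 (log2 difference -2.19), with 809 for the empty vector. Among ionotropic glutamate receptor genes 5 were higher and 8 lower of 20 (median -0.065), including the NMDA receptor subunit gene Grin2a (97.7 against 212 CPM, -1.12). Of 12 GABA-A receptor subunit genes, 4 were higher and 7 lower, with a median of -0.36. Gabra5 had 32.5, 30.5, 30.9 and 29.7 CPM against 123, 126, 139 and 143 (log2 difference -2.1). Word A was in the 3′ UTR of 5 of these 12 genes (Gabra2, Gabra5, Gabrb1, Gabrg1 and Gabrg3), against 10.4% of all genes, and word B in none. Potassium channel genes (28.6%) and sodium and calcium channel genes (26.1%) were also above that share of word A, whereas pan-neuronal genes were at 10.0%. These shares make no allowance for UTR length, which was 12228 bases in Gabrb1.

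Ion channel genes were more often lower than higher. Of 23 sodium and calcium channel genes, 6 were higher and 13 lower (median -0.24), and of 28 potassium channel genes 10 were higher and 15 lower (median -0.22). Scn3b, an accessory sodium channel subunit gene, had 36.2, 36.4, 36.1 and 37.0 CPM with 2 mutations and 198, 191, 208 and 208 with 5 (log2 difference -2.46). Scn3b held word B and went against the direction of that word. Kcnd2, a channel subunit of dendrites, was lower (21.2 against 67.9 CPM, -1.68) and held word A.

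Axon guidance genes were higher in 12 and lower in 17 of 36, with a median of -0.21. The secreted repellent gene Slit2 had 27.5, 27.2, 33.3 and 31.4 CPM against 178, 172, 175 and 151 (log2 difference -2.50) and held 3 sites of word A. Sema3c was higher (65.0 against 10.5 CPM, 2.62), and Sema5a was higher (49.4 against 9.17 CPM, 2.42) with 1 site of word B. Genes of perineuronal nets and matrix were split evenly, with 8 higher and 8 lower of 19 and a median of -0.038. Beside Acan, the hyaluronan synthase gene Has3 (3.29 against 34.5 CPM, -3.38) and the link protein gene Hapln1 (1.90 against 19.2 CPM, -3.35) were lower, and both held word A. The proteoglycan gene Ncan (712 against 315 CPM, 1.18) and the tenascin gene Tnr (196 against 46.6 CPM, 2.07) were higher, with 1 and 2 sites of word B, and Tnr also held word A.

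Filament and actin genes were more often higher than lower. Of 15 neuronal intermediate filament and tubulin genes, 8 were higher and 2 lower (median 0.41), and the neurofilament gene Nefm had 423, 331, 377 and 380 CPM against 70.1, 39.5, 65.6 and 47.8 (log2 difference 2.76), with 56.9 for the empty vector. Nefh was higher too (41.6 against 7.20 CPM, 2.53), while Prph, as shown, was lower. Of 23 actin binding and contractile genes 12 were higher and 5 lower (median 0.60), among them Cnn2 (20 against 2.99 CPM, 2.76) and Flna (398 against 211 CPM, 0.92). None of these 23 genes held word A or word B. Nefm overlaps Nefl on the other strand.

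All 25 tested motile cilium and axoneme genes were called, 22 higher and 3 lower, with a median of 0.75. Ccdc65 had 26.8, 24.1, 24.6 and 25.9 CPM against 7.30, 5.92, 7.03 and 6.93 (log2 difference 1.90), and Foxj1, the master regulator of motile cilia, had 8.30, 8.21, 9.22 and 9.34 against 2.27, 1.14, 2.92 and 1.76 (2.14). Levels were low throughout, and Foxj1 had 6.02 CPM with the empty vector. The dynein gene Dnah5 was lower (7.29 against 31.3 CPM, -2.1). Word A was in 1 and word B in 3 of the 24 genes with a UTR.

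Genes induced by p53 and genes of apoptosis were higher in 18 and lower in 3 of 25, with a median of 0.76. Beside Ccng1, Zmat3 had 287, 277, 306 and 306 CPM against 90.7, 91.6, 101 and 98.4 (log2 difference 1.63), and Ei24 had 222 against 80.6 CPM (1.46). Cdkn1a, the gene of the cell cycle inhibitor p21, had 183, 156, 178 and 189 CPM against 111, 76.7, 110 and 84.7 (0.89), with 91.1 for the empty vector and 166 for the unmutated hairpin. Word A and word B were each in 1 of the 25 genes. Cell cycle genes, at low levels, were higher in 5 and lower in 9 of 30 (median -0.0061).

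Lysosome genes were higher in 19 and lower in 7 of 30 (median 0.52). The protease gene Ctsb had 420, 416, 429 and 451 CPM against 103, 91.9, 116 and 107 (log2 difference 2.04), and Tpp1 had 78.0 against 23.9 CPM (1.71), while the proton pump subunit gene Atp6v0d1 was lower (105 against 231 CPM, -1.14). Autophagy genes were higher in 17 and lower in 6 of 28 (median 0.23). Among the genes of the lists named here, Ctsb, Reln, Slc32a1, Bdnf, Jun, Cdkn1a, Neurod1, Ei24, Gapdh, Aldoa, Gabra5, Gabrb1, Has3, Tnr, Lss, Rtn3, Syt4, Cnp and Map2 overlap an annotated gene on the other strand and are uncertain for the same reason as Rasa4.

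Genes of oxidative phosphorylation, ribosomes and glycolysis were more often higher than lower. Nuclear-encoded oxidative phosphorylation genes were higher in 31 and lower in 4 of 40 (median 0.35), with 26 higher and 5 lower without 5-mutation replicates 2 and 3. Cox6a1, a subunit of cytochrome oxidase, had the top value of that list, with 198, 212, 204 and 193 CPM against 112, 84.5, 131 and 98.0 (log2 difference 0.93). Cytosolic ribosomal protein genes were higher in 31 and lower in 4 of 46 (median 0.28), from Rpl3 (188 against 367 CPM, -0.96) to Rpsa (747 against 339 CPM, 1.14). These genes have many processed copies in the genome, and how the authors treated reads with several matches is not given in the sources used here. Glycolysis genes were higher in 13 and lower in 3 of 23 (median 0.27), and here Aldoa (808 against 377 CPM, 1.10) and Gapdh (470 against 930 CPM, -0.98), often used as a reference gene, went in opposite directions. The largest difference of the list was in Slc16a3, a transporter of lactate at a low level (0.257 against 7.11 CPM, -4.79). Cholesterol synthesis genes were higher in 7 and lower in 11 of 23 (median -0.089), and in 8 and 7 without 5-mutation replicates 2 and 3. Lss (14.3 against 32.7 CPM, -1.20), which forms lanosterol, was lower.

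Stress and innate immune genes differed by list. Endoplasmic reticulum chaperone genes were higher in 14 and lower in 4 of 21 (median 0.32), with Hspa5, the main chaperone, at 343 against 236 CPM (log2 difference 0.54). The 4 lower became 1 without 5-mutation replicate 1. Integrated stress response genes were higher in 10 and lower in 9 of 25 (median 0.064), with Asns, which makes asparagine, lower (59.0 against 156 CPM, -1.40). Interferon and double-stranded RNA response genes were higher in 11 and lower in 5 of 20 (median 0.46), while 10 others of that list were too low to be tested. Mx1, an antiviral effector, had 0.870 to 1.27 CPM against 0.0255 to 0.0981, a low level in both groups.

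Regulators of chromatin and neuronal transcription were higher in 11 and lower in 13 of 30 (median -0.076), and Hdac9, with 2 sites of word A, was the lowest (63.7 against 238 CPM, log2 difference -1.90). Genes known to be repressed by the neuronal microRNA miR-124 were higher in 10 and lower in 7 of 23 (median 0.041). The largest of these differences was in Vim, the intermediate filament gene of glia and progenitors (171 against 55.7 CPM, 1.62).

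**Figure D5:**
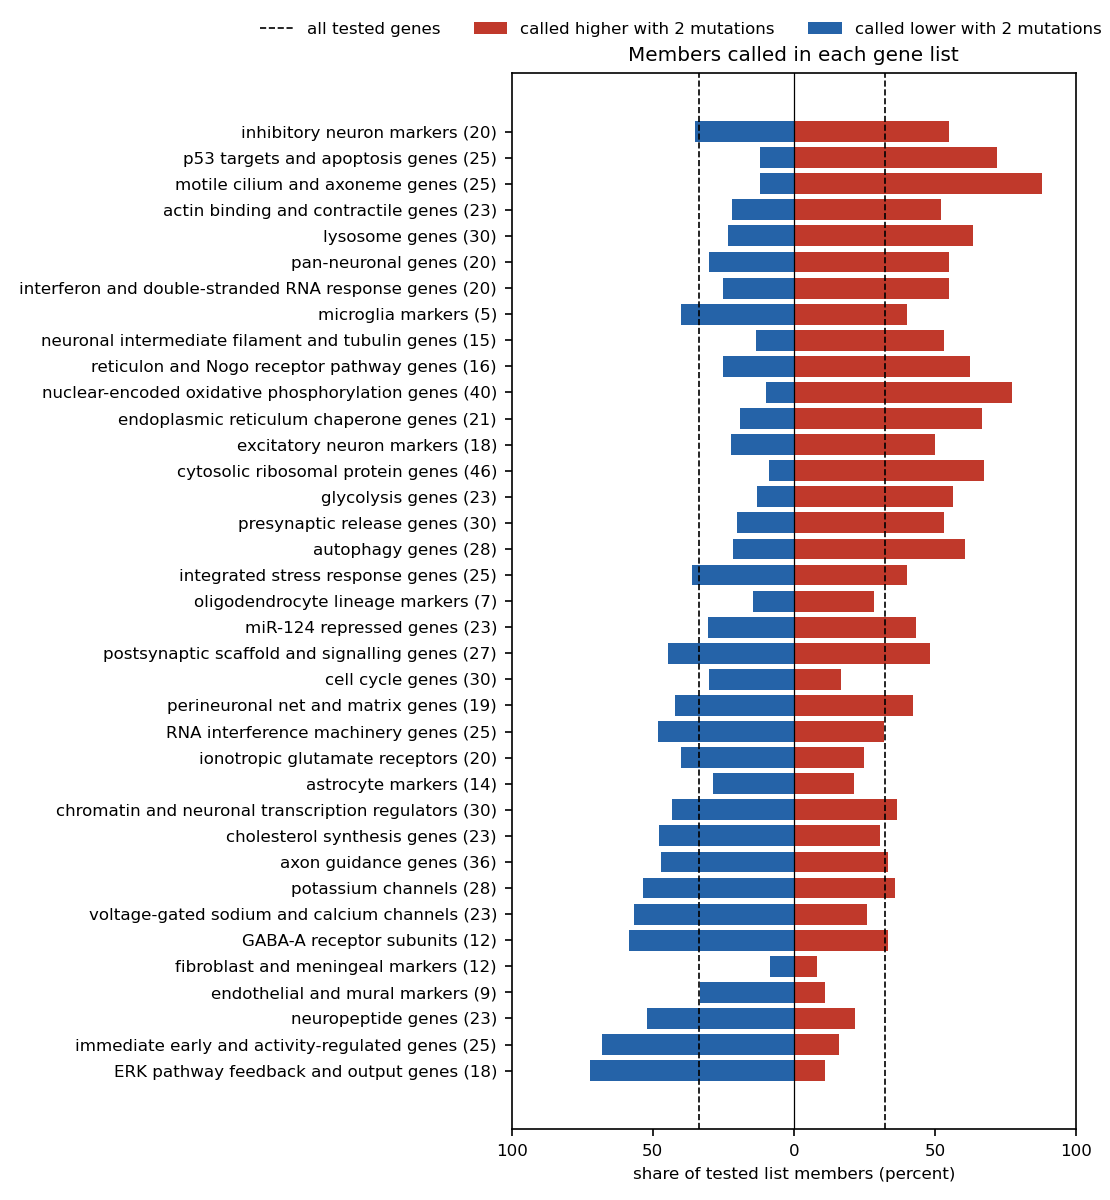
Share of the tested members of each gene list (percent, number tested in brackets) called higher (red, to the right) or lower (blue, to the left) with 2 mutations, ordered by the median log2 difference; dashed lines mark the shares over all tested genes (32.3% and 33.6%). ERK pathway genes (13 lower of 18) and immediate early genes (17 lower of 25) lie at the bottom, and motile cilium genes (22 higher of 25) have the longest red bar.

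Among called genes, most noncoding classes had more lower than higher with 2 mutations, whereas protein-coding genes were nearly balanced. Over all genes tested, 32.3% were higher and 33.6% lower, so that 65.9% were called. Of 14470 protein-coding genes, 5744 were higher and 5054 lower (median 0.041). Of 757 long intergenic noncoding genes, 153 were higher and 303 lower (median -0.34), and of 672 antisense genes 89 were higher and 234 lower (median -0.30). The 1533 loci of the annotation class TEC, for which protein-coding potential has yet to be tested, were higher in 85 and lower in 428 (median -0.33), and sense intronic genes in 5 and 48 of 212. The 151 loci annotated as microRNA genes were higher in 3 and lower in 37 (median -0.47). Small nuclear RNA genes (11 higher and 5 lower of 59) and small nucleolar RNA genes (15 and 10 of 113) had more higher than lower calls. Only 27.1% and 22.1% of these were called, and their medians, -0.0175 and 0.0029, showed little difference either way. Without 5-mutation replicates 2 and 3 the side with more calls was the same in each of these classes. There were then 96 higher and 363 lower TEC loci, and 4 higher and 27 lower microRNA loci. The shares of Gm26917 given above moved with the same groups, and their part in these counts was not tested.

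The relation of level to gene length was compared as well. The slope of log2 CPM on the doubling of gene length was 0.0033 (SD 0.013, n = 4) with 2 mutations and -0.011 (SD 0.022, n = 4) with 5. The difference of 0.014 was within the spread between libraries (exact 2-sided permutation test, p = 0.314, smallest possible 0.0286). It turned to -0.0060 when only protein-coding genes were used (p = 0.543 in the same exact permutation test). With the genes sorted by length into 5 equal groups, the shortest (up to 3197 bases) had 521 higher and 1033 lower of 3892 (median -0.24), and the longest (from 62201 bases) 1402 higher and 1601 lower of 3892 (median -0.053).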

How the data were processed

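RNA of the 16 samples was depleted of ribosomal RNA and made into directional libraries, per the labels' protocols. Trim Galore 0.6.0, cutadapt 1.15, STAR 2.7.2b, featureCounts and the GRCm38.p6 assembly are named in the submitters' processing notes. The deposited values are raw counts per gene made by the authors with featureCounts, and the strand setting is not given in the sources used here. Of 55335 gene identifiers, all but 181 matched GENCODE vM21 annotation, from which names, positions and 3′ UTRs were taken. The 37 mitochondrial genes were at 0 throughout.

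Genes were filtered by expression (19479 of 39067 with a count were kept), scaled by TMM and fitted over all 16 libraries with edgeR 4.0.16 (R 4.3.3, robust quasi-likelihood), with Benjamini-Hochberg adjustment over all genes tested and a threshold of 0.05. The fit was tested on simulated data. Far fewer genes were changed in them than were called here, so that test does not cover so broad a difference. Chi-square tests of the counts of same-group library pairs gave ratios to their degrees of freedom of 3.464 to 24.16, above the value of counting error alone, and each library was counted as 1 replicate. CPM and log2 values were computed from the counts. Coefficients of 3′ UTR words and seeds came from a regression in each library with UTR length and GC content as covariates, in Python 3.11.15.

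The genes named were the 12 highest and 12 lowest differences among called genes with a symbol, a mean log2 CPM of at least 2 and no overlap, up to 4 members with the smallest p in each list, all reticulon and RNA interference genes, and Gm26917 and Gm42418. A few genes that this rule names are not reported here. Other genes were named after their values were seen. Members and lists were chosen with earlier results of these data known. Alternatives were DESeq2 1.42.0, its size factors in edgeR, no expression filter, the 8 libraries alone, a replicate block, protein-coding genes only, and leaving out libraries. Leaving out 5-mutation replicates 2 and 3 together was chosen after seeing the data.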

Additional observations from a re-analysis of the deposited data

Results flagged for a closer look

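Single libraries stood far from the other 3 of their group for 17 of 472 groups of 4 values examined (3.6%), with a gap to the nearest other library that passed Dixon's 95% limit. Chance flags about 1 in 20 groups. In 5-mutation replicate 2 these were Ago3 (44.1 CPM), Cspg4 (2.37), Grp (8.61), Lin28b (8.32), Mcm6 (14.8) and Prkra (31.5). In 5-mutation replicate 3 they were the activity-regulated genes Fosb (30.2 CPM) and Npas4 (85.3) and the fibroblast markers Col1a1 (58.2), Col1a2 (40.1) and Lum (4.42). In 2-mutation replicate 3 they were Cnih2 (101 CPM), Dusp5 (7.93), Dynlt3 (7.95) and Nr4a1 (4.75). The rest were Rgs13 (27.1 CPM) in 2-mutation replicate 1 and Id3 (1.55) in 2-mutation replicate 4.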

How the results depend on the processing

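The number of genes called between the mutated hairpins was 12838 as reported, 12818 with the size factors of DESeq2, 12639 with DESeq2, 13805 without the expression filter, 12192 with the 8 libraries alone, 10949 with protein-coding genes only, and 12342 to 13164 with any 1 library left out. Without 5-mutation replicates 2 and 3 it was 12165 (6025 higher and 6140 lower). Same-numbered libraries were not treated as pairs, because no label ties them and not every correlation of their deviations was above 0.1 (0.0847, 0.272, 0.0644 and 0.0868). As a hint from the data, 3 of the 4 2-mutation libraries correlated best with their own number. With the replicate block 13232 genes were called (6497 higher and 6735 lower). Of 3708 pairs of a named gene and an alternative, 3645 kept direction and call, 20 lost the call, 40 gained it and 3 turned. Those 3 were of Lin28b, which was not called at -0.04 and had 0.031 without 2-mutation replicate 4, 0.16 without 5-mutation replicate 2 (from -0.12 to 0.16 over all libraries left out in turn) and 0.14 without 5-mutation replicates 2 and 3. The difference in gene length slope turned to -0.0060 with protein-coding genes only, and was 0.0060 to 0.024 with any 1 library left out. Excitatory markers had 7 lower genes in place of 4 under the block, and fibroblast markers 5 in place of 1 (4 with DESeq2, 7 without the expression filter). The causes were not tested. Genes with few counts limit the lists of glia, vessels, the cell cycle and interferon.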
